A study of Mus musculus with 6 samples.

Results

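The Slc25 family supplies most of the transporters that carry metabolites, nucleotides and cofactors across the inner mitochondrial membrane. Its members were taken as every gene whose symbol is Slc25a followed by a number, which gave 47 of the 19977 genes in the deposited table. Of these, 38 had a mean of at least 1 FPKM (a per-kilobase, per-million rate of sequenced fragments) over the 6 libraries and were tested, and 9 were below it. Expression was measured by RNA sequencing in CD4+ T cells from the spleen and lymph nodes of wild-type C57BL/6 mice, in 3 libraries from young mice and 3 from old mice (11 months). The young mice were 6 to 8 weeks old by the protocol, but the sample titles code them as 1M. The cells of every library were purified by flow cytometry and stimulated in culture with anti-CD3 and anti-CD28 for 6 hours, so no unstimulated cells enter the comparison. The labels do not state the animals behind each library or whether animals were pooled, and p-values therefore measure the spread between libraries, which may be technical.

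The inner mitochondrial membrane lets few solutes through unaided, and carriers of this family exchange ADP for ATP, bring in phosphate, and move carboxylic acids, amino acids, iron and cofactors between matrix and cytosol. They are encoded in the nucleus, made in the cytosol and inserted by the TIM22 import machinery. A T cell stimulated through its receptor enlarges its mitochondrial network and draws on it for ATP, aspartate, citrate and one-carbon units as it prepares to divide.

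Libraries held between 16932551 and 18708205 expected counts. Young replicate 1 stood apart: across genes, which are not independent replicates, its correlation was 0.924 with young replicate 2 and 0.911 with young replicate 3, whereas that between replicates 2 and 3 was 0.977. Log2 differences are therefore given with and without it. The summed CPM (per-million counts of the TMM-scaled library) of Cd4, Cd3e and Cd3d lay between 982 and 1268 in young and between 1100 and 1434 in old libraries. Marker sums of other cell types were lower. For 5 neutrophil genes the sum was 23.8 to 54.4 CPM in young and 3.40 to 21.4 CPM in old libraries, without overlap, and young replicate 1 held the highest sum. The groups also did not overlap for 2 CD8 genes, at 16.6 to 27.5 and 11.3 to 14.6 CPM. Nor did they for 3 natural killer genes, higher in old libraries at 0.0578 to 0.645 and 0.655 to 1.15 CPM. Sums overlapped for 5 B-cell genes (11.6 to 34.2 and 9.72 to 18.0 CPM) and 5 monocyte and macrophage genes (8.76 to 14.7 and 5.56 to 8.85 CPM). They also overlapped for 6 erythroid genes (1.27 to 5.37 and 0.378 to 1.69 CPM). No marker was at 0 in all libraries, and the part of these cells in the results was not tested. In such bulk libraries, fewer cells of a type and less RNA per cell cannot be told apart.

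The family spanned a wide range of levels in stimulated CD4+ T cells. On the FPKM scale, which corrects for length, 2 members had a mean above 100, 10 lay between 20 and 100, 15 between 5 and 20 and 11 between 1 and 5. Slc25a5, the adenine nucleotide translocase of proliferating cells, averaged 421 FPKM, and Slc25a3, which imports phosphate for ATP synthesis, averaged 316 FPKM. Together these transcripts made up 48.9% of the family's summed FPKM in young replicate 1 and between 55.1% and 62.0% in the other 5 libraries. The summed FPKM of the family was 1069 in young replicate 1, 1495 in each of young replicates 2 and 3, and 1290, 1174 and 1217 in old replicates 1 to 3. Old libraries thus lay between young replicate 1 and the other young libraries, and the groups overlapped. The 9 members below the filter were Slc25a2, Slc25a18, Slc25a21, Slc25a31, Slc25a34, Slc25a41, Slc25a43, Slc25a48 and Slc25a54. Slc25a31, the translocase of germ cells, was listed at 0 in every library, as were Slc25a48 and Slc25a54, and the highest mean of the 9 was 0.272 FPKM, for Slc25a18, a glutamate carrier.

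With all 6 libraries, 0 of the 38 members were called between old and young (edgeR quasi-likelihood test, Benjamini-Hochberg adjusted p under 0.05). Of all 10509 genes tested, 0.875% were called, 0.742% higher and 0.133% lower in old libraries. An unadjusted p under 0.05 was reached by 3 members, Slc25a23, Slc25a24 and Slc25a53 (7.89%, against 10.6% of all genes), and DESeq2 called 1 lower, Slc25a23 (DESeq2 adjusted p = 0.0162). DESeq2 called 4.77% of all genes, 3.56% higher and 1.21% lower. Groups did not overlap for 6 of the 38 members (15.8%), against 16.4% of all genes. Slc25a24, Slc25a51 and Slc25a53 were higher in every old library (7.89%, against 9.90% of all genes), and Slc25a12, Slc25a23 and Slc25a38 were lower (7.89%, against 6.54%). The median log2 difference was -0.10 over the members and -0.03 over all genes tested.

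Without young replicate 1, edgeR called 5 of the 38 members (13.2%), against 8.84% of all genes, and 12 had an unadjusted p under 0.05 (31.6%, against 28.1%). Slc25a24 and Slc25a53 were called higher in old libraries (5.26%, against 5.86% of all genes). Slc25a12, Slc25a23 and Slc25a39 were called lower (7.89%, against 2.98% of all genes). DESeq2 called 8 members without that library (21.1%, against 17.1% of all genes). These were the same 5 with Slc25a40 higher (3 higher in all, 7.89%, against 9.43%) and Slc25a3 and Slc25a5 lower (5 lower in all, 13.2%, against 7.62%). The median was then -0.05 over the members and 0.01 over all genes. Old libraries were separated from young replicates 2 and 3 for 19 of the 38 members (50.0%), against 47.5% of all genes: 8 were higher in old libraries (21.1%, against 24.3%) and 11 lower (28.9%, against 23.2%). With all libraries, log2 differences were below 0 for 25 of the 38 members (65.8%, against 55.1% of all genes). Without young replicate 1 they were below 0 for 23 (60.5%, against 49.0%). The shares called lower without that library stood above those of all genes, and most other shares lay near them. A direction of the family as a whole was not tested, and the counts set none. All 5 edgeR calls ended when young replicate 3 was left out together with young replicate 1.

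**Figure D1:**
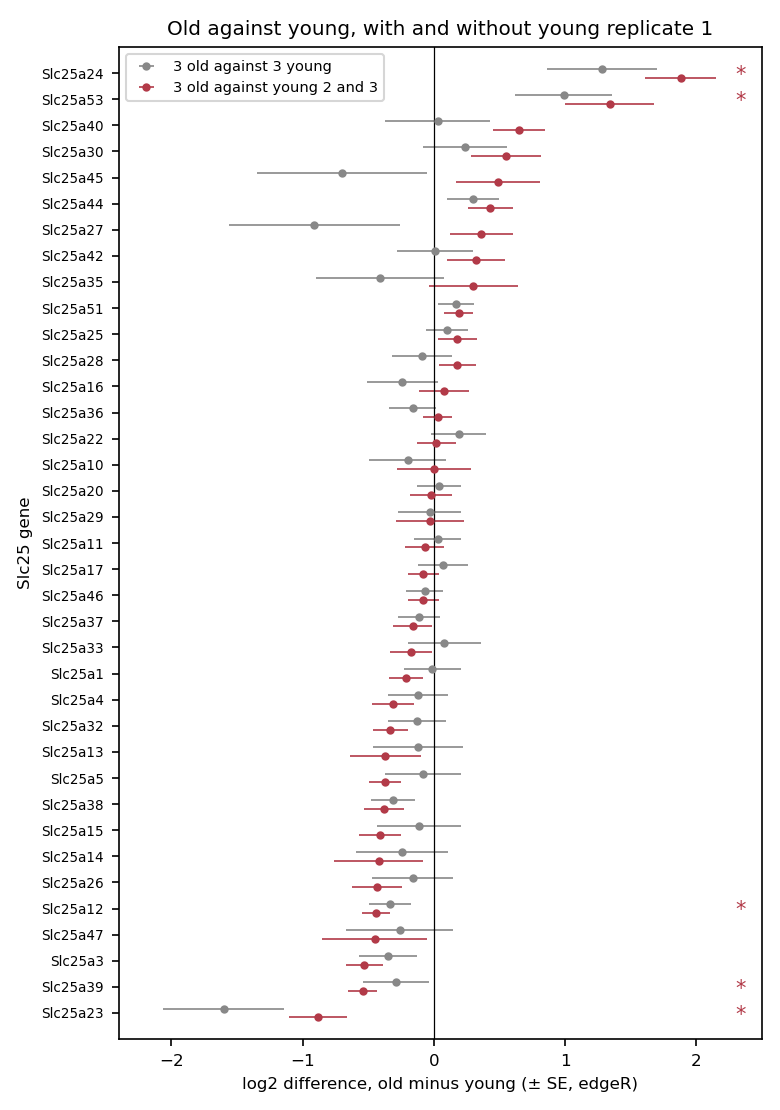
Log2 difference between old and young libraries (edgeR, ± SE) for 37 of the 38 tested Slc25 genes, ordered by the value without young replicate 1. Grey points use 3 old and 3 young libraries, red points 3 old libraries and young replicates 2 and 3, and a red asterisk marks the 5 genes with an adjusted p under 0.05 in the latter. Slc25a24 and Slc25a53 lie highest and Slc25a23 lowest in both fits, while Slc25a27 and Slc25a45 change sign between them.

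The calcium-regulated carriers, which exchange ATP-Mg for phosphate and so set the adenine nucleotide content of the matrix, held the largest differences of the family in both directions. Slc25a24 (gene 229731, chromosome 3, 109123149 to 109168409 in GRCm38) stood at 11.1, 4.19 and 4.51 CPM in young replicates 1 to 3 and at 20.2, 16.0 and 11.7 CPM in old replicates 1 to 3. The groups did not overlap, with young replicate 1 close under the lowest old library. Its log2 difference was 1.28 ± 0.42 (SE, n = 3 per group) with all libraries, not called (edgeR adjusted p = 0.299). Without young replicate 1 it rose by 1.88 ± 0.27, a 3.67-fold difference (edgeR adjusted p = 0.00891), and leaving out a further library gave 1.67 to 2.04 with adjusted p of 0.00435 to 0.106 in edgeR, past 0.05 only without young replicate 3.

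Slc25a23 (gene 66972, chromosome 17, 57043711 to 57059909), the close relative of Slc25a24 with the same exchange activity, went the other way. It stood at 95.7, 38.3 and 27.2 CPM in young replicates 1 to 3 and at 22.3, 15.9 and 15.1 CPM in old replicates 1 to 3. All young libraries lay above all old ones, and young replicate 1 stood far above the other young libraries. The log2 difference was -1.60 ± 0.46 with all libraries (edgeR adjusted p = 0.228, not called). Without young replicate 1 it was -0.88 ± 0.22, a 1.84-fold lower level in old libraries (SE, edgeR adjusted p = 0.0476), and leaving out a further library gave -1.12 to -0.61 with adjusted p of 0.0182 to 0.161 in edgeR, under 0.05 only without old replicate 1. Slc25a25, the remaining expressed carrier of this kind, stood between 17.8 and 22.2 CPM in all 6 libraries, with log2 differences of 0.10 ± 0.16 with all libraries and 0.18 ± 0.15 without young replicate 1 (SE) and no call. Slc25a41 was below the filter at a mean of 0.145 FPKM.

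Since each gene of the pair was already separated by age in the opposite direction, the share of one in their sum had to be separated too, and it is given as a description of its size, with no test. Slc25a24 made up 10.3%, 9.78% and 14.2% of the summed FPKM of both genes in young replicates 1 to 3 and 47.4%, 50.0% and 43.1% in old replicates 1 to 3. The share averaged 11.4% ± 2.41 over the young and 46.8% ± 3.49 over the old libraries (SD, n = 3 per group), a difference of 35.4 percentage points. The pair, and the other 5 pairs of related carriers below, were chosen after the members' values were seen. Leaving out any one library kept the difference between 33.9 and 37.3 points, and expected counts in place of FPKM gave 35.7 points. In old replicate 3, 63.1% of the Slc25a23 FPKM was assigned to the predicted transcript XM_011246576.2, which held at most 2.93% in the other libraries.

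For the other 5 pairs the shares of the groups overlapped. Slc25a12 made up 92.0% ± 1.48 of the aspartate/glutamate pair with Slc25a13 in young and 90.7% ± 2.27 in old libraries (SD, n = 3 each). Slc25a4 made up 12.0% ± 2.06 and 11.3% ± 1.64 of the translocase pair with Slc25a5, for which reads shared with similar sequences were not measured. Slc25a39 made up 94.8% ± 4.93 and 94.7% ± 0.221 of the glutathione pair with Slc25a40, where the share was 89.1% in young replicate 1 and 97.6% and 97.7% in the other young libraries. Slc25a37 made up 39.5% ± 8.53 and 38.3% ± 3.71 of the mitoferrin pair with Slc25a28. Slc25a33 made up 34.1% ± 12.8 and 37.4% ± 2.91 of the pyrimidine nucleotide pair with Slc25a36. The separation of the ATP-Mg/phosphate pair was already fixed by that of its genes. Its contrast with the other 5 pairs is therefore a description and no test.

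**Figure D2:**
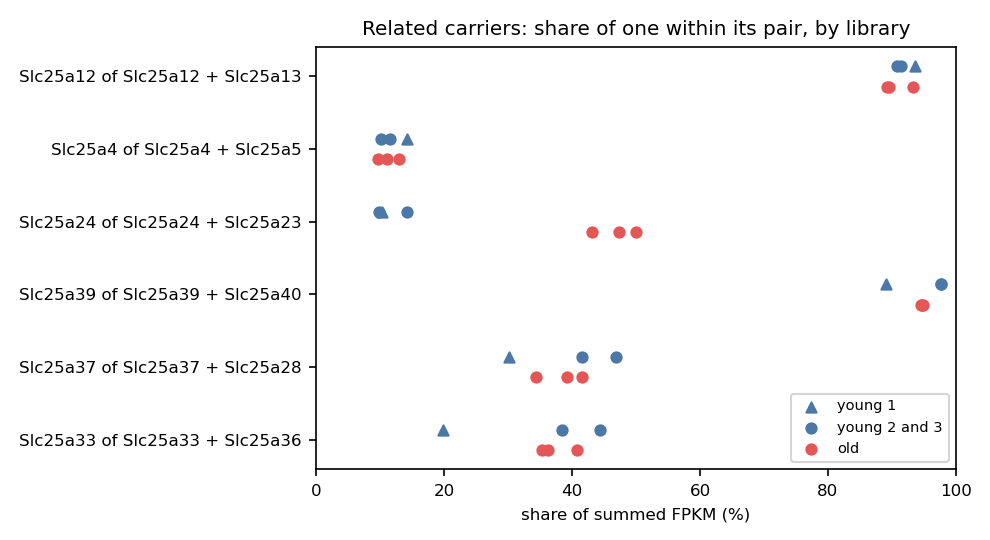
Share of one carrier in the summed FPKM of a pair of related carriers, in percent, by library. Each point is one library, young in blue (young replicate 1 as a triangle) and old in red. For Slc25a24 and Slc25a23 the young libraries lie between 9.78% and 14.2% and the old ones between 43.1% and 50.0%, and for the other pairs the groups overlap.

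Upstream sequences of these carriers, taken from RefSeq on GRCm38.p6, are shown for the diverging pair and for Slc25a3. Each is the run of 250 bases before a transcript start, 5′ to 3′ on the gene's strand. For Slc25a23 and Slc25a3 that start lies inside the annotated gene span, so the 3′ end of the window overlaps the gene's annotated 5′ end. Capitals mark matches to 4 motifs searched on both strands: the NRF1 site (GCGCA, any base, GCGC), the E-box CACGTG, the ETS site CCGGAAG and the cyclic AMP response element (CRE) letters TGACGTC. The motifs were chosen after the members' values were seen.
Slc25a24, chr3:109122899-109123148, plus strand: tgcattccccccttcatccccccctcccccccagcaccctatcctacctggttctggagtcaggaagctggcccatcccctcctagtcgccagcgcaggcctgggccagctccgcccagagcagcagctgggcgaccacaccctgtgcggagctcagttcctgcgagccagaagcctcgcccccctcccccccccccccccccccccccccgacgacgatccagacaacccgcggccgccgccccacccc
Slc25a23, chr17:57059864-57060113, minus strand: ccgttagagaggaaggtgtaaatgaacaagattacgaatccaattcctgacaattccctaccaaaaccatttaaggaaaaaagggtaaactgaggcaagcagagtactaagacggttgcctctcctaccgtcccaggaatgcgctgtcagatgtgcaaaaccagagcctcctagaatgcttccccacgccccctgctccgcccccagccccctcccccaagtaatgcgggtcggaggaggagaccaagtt
Slc25a3, chr10:91123968-91124217, minus strand: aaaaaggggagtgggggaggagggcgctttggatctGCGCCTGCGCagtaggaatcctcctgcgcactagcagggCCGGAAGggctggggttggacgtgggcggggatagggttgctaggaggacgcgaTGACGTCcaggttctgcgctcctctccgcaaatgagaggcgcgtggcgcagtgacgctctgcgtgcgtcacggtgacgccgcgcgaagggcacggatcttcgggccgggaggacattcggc
These letters had no match in the Slc25a24 and Slc25a23 windows, whose GC contents were 72.8% and 52.4%, and RefSeq lists a further start for Slc25a23 that is not shown. The Slc25a3 window held the NRF1, ETS and CRE letters. A window was listed for 29 of the 38 tested members. The NRF1 letters were present in 1 of the 29 (3.45%) against 3.86% of 27025 windows of all genes, the E-box in 5 (17.2% against 6.05%), the ETS site in 5 (17.2% against 7.05%) and the CRE letters in 3 (10.3% against 2.88%). Slc25a33 and Slc25a36, which both carry pyrimidine nucleotides, each held the E-box and the CRE letters. The only overlapping matches were both strands of the CRE letters in Slc25a36. The member windows belong to genes with a mean of at least 1 FPKM, whereas the 27025 windows were not filtered by expression. The shares thus come from unlike sets, and their differences were not tested. A match describes letters and not binding.

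The carriers of ADP, ATP and phosphate were lower in young replicate 1 than in both other young libraries. Slc25a5 stood at 319, 687 and 675 CPM in young replicates 1 to 3 and at 540, 500 and 546 CPM in old replicates 1 to 3. The old libraries lay between young replicate 1 and the other young ones. The log2 difference was -0.08 ± 0.29 with all libraries and -0.37 ± 0.12 without young replicate 1 (SE), and neither was called (edgeR adjusted p = 0.965 and 0.0875). Limma on FPKM turned the former to between 0.01 and 0.02. Near-identical copies of a gene can share reads with it. How far this affected Slc25a5, Slc25a4 and the split between them was not measured, and the pseudogene Slc25a5-ps was not analysed here.

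Slc25a3 stood at 384, 541 and 654 CPM in young replicates 1 to 3 and at 447, 369 and 423 CPM in old replicates 1 to 3. Old libraries overlapped young replicate 1 and lay under the other young libraries. Its log2 difference was -0.35 ± 0.22 with all libraries and -0.53 ± 0.14 without young replicate 1 (SE), and neither was called by edgeR (adjusted p = 0.689 and 0.0538). The transcript NM_133668.3 held between 76.2% and 87.9% of its FPKM in every library. Slc25a4, the translocase of heart and muscle, stood at 45.0, 65.9 and 75.7 CPM in young and at 68.5, 53.0 and 50.0 CPM in old libraries, which overlap, with log2 differences of -0.12 ± 0.23 with all libraries and -0.31 ± 0.16 without young replicate 1 (SE) and no call.

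**Figure D3:**
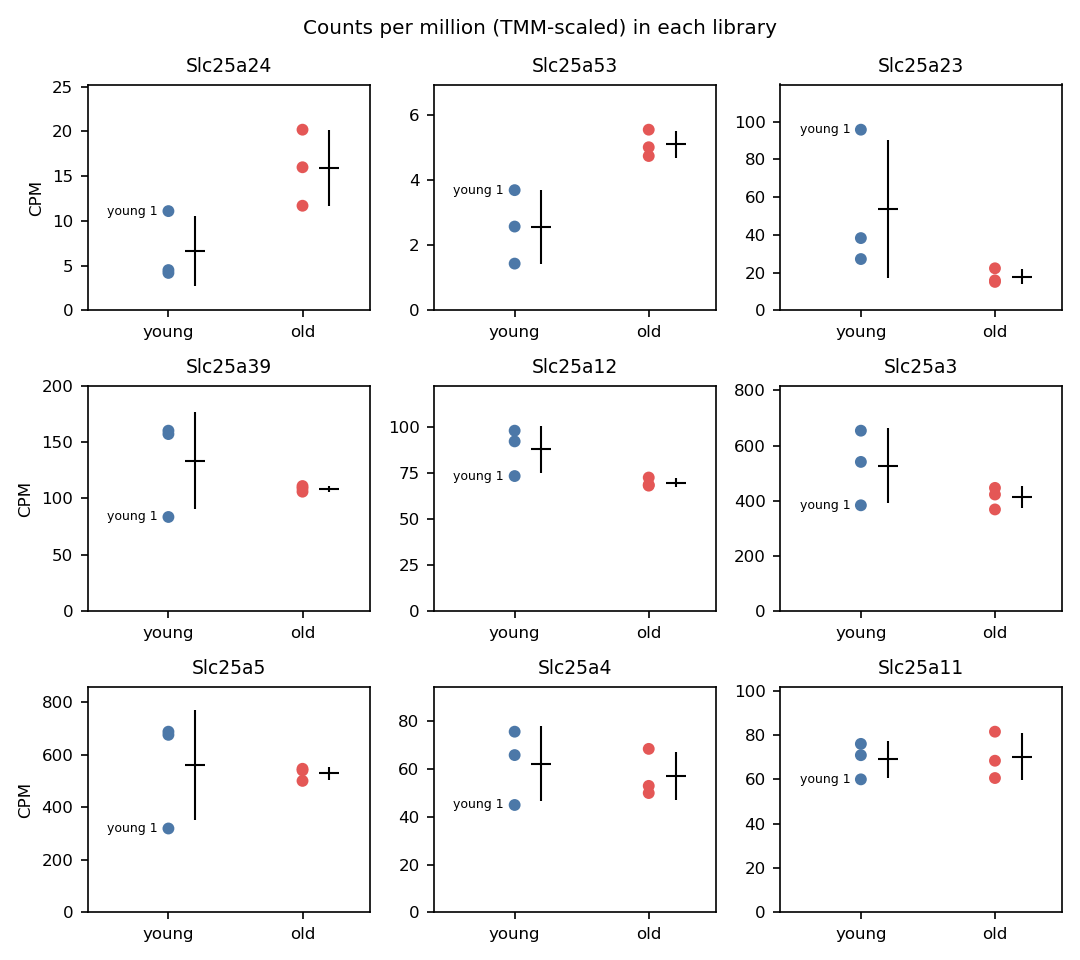
CPM (per-million counts of the TMM-scaled library) in each library for the 5 members called without young replicate 1 and the other 4 among the 5 highest by FPKM, on linear axes from 0. Points are libraries (young blue, old red, young replicate 1 named), and the bar beside them is the mean ± SD of 3. Young replicate 1 is the highest young library for Slc25a24, Slc25a53 and Slc25a23 and the lowest for the other 6 genes.

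Among carriers of carboxylic acids and of aspartate and glutamate, 6 of 8 were tested. EdgeR called 0 of the 6 with all libraries (against 0.875% of all genes) and 1 without young replicate 1 (against 8.84%). Slc25a12 (gene 78830, chromosome 2, 71274270 to 71367781), which exports aspartate in exchange for glutamate as part of the malate-aspartate shuttle, stood at 73.4, 98.0 and 92.2 CPM in young replicates 1 to 3 and at 72.6, 68.2 and 68.7 CPM in old replicates 1 to 3. The groups did not overlap, but young replicate 1 lay only just above the highest old library. Its log2 difference was -0.33 ± 0.16 with all libraries (edgeR adjusted p = 0.558) and -0.44 ± 0.11 without young replicate 1, a 1.36-fold lower level (SE, edgeR adjusted p = 0.0499). That call sat at the threshold and ended on leaving out any further library (adjusted p of 0.0703 to 0.187 in edgeR).

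Slc25a11, which exchanges oxoglutarate for malate in the same shuttle, stood at 60.0, 70.9 and 76.0 CPM in young and at 81.5, 60.6 and 68.4 CPM in old libraries, with log2 differences of 0.03 ± 0.18 with all libraries and -0.07 ± 0.15 without young replicate 1 (SE). Its groups overlapped. Its span overlaps Rnf167 in the gene table. The citrate carrier Slc25a1 had a log2 difference of -0.01 with all libraries and -0.21 without young replicate 1. The dicarboxylate carrier Slc25a10 had -0.20 and 0.00, the second aspartate/glutamate carrier Slc25a13 had -0.12 and -0.37, and the glutamate carrier Slc25a22 had 0.19 and 0.02, all without a call.

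Carriers of cofactors were represented by all 9 listed members. EdgeR called 0 of the 9 with all libraries (against 0.875% of all genes) and 1 without young replicate 1 (against 8.84%). Slc25a39 (gene 68066, chromosome 11, 102402969 to 102408675), which imports glutathione into mitochondria, was the highest of them at a mean of 78.1 FPKM. It stood at 83.6, 160 and 157 CPM in young replicates 1 to 3 and at 106, 109 and 111 CPM in old replicates 1 to 3. The 3 old libraries were nearly level and lay between young replicate 1 and the other young libraries. Its log2 difference was -0.29 ± 0.25 with all libraries (edgeR adjusted p = 0.800) and -0.54 ± 0.11 without young replicate 1 (SE, edgeR adjusted p = 0.0224), a 1.45-fold lower level. Leaving out a further library gave -0.57 to -0.52 with adjusted p of 0.0492 to 0.137 in edgeR, under 0.05 only without old replicate 3.

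Slc25a40, the related glutathione carrier, had the opposite pattern across young libraries, at 18.1 CPM in young replicate 1 against 7.04 and 6.76 in the others, with old libraries between 10.4 and 11.1 CPM. Its log2 difference was 0.03 with all libraries and 0.65 ± 0.20 without young replicate 1 (SE), not called by edgeR (adjusted p = 0.0798). None of the cofactor carriers described next was called in either edgeR fit. With and without young replicate 1, the S-adenosylmethionine carrier Slc25a26 had log2 differences of -0.16 and -0.43, the folate carrier Slc25a32 of -0.13 and -0.33, and the peroxisomal carrier Slc25a17 of 0.07 and -0.08. Of the carriers linked to coenzyme A transport, Slc25a16 had -0.24 and 0.08, and Slc25a42 had 0.01 and 0.32. Slc25a51, the NAD carrier, stood at 109 to 121 CPM in young and 128 to 135 CPM in old libraries without overlap, with log2 differences of 0.17 ± 0.14 with all libraries (SE, edgeR adjusted p = 0.776) and 0.19 ± 0.11 without young replicate 1.

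Of 9 listed carriers of amino acids and acylcarnitine, 7 were tested and 0 were called by edgeR in either fit, with 0 at an unadjusted p under 0.05 with all libraries and 3 of 7 without young replicate 1, where DESeq2 also called 0. Over all genes, 10.6% and 28.1% passed that unadjusted threshold in the respective fits, and groups this small carry no result by their counts. Those 3 were the ornithine carrier Slc25a15 (log2 difference -0.11 with and -0.41 without young replicate 1), the glycine carrier Slc25a38, which serves haem synthesis (-0.31 and -0.38), and the branched-chain amino acid carrier Slc25a44 (0.30 and 0.43). Slc25a38 stood at 43.5, 43.7 and 57.1 CPM in young and at 36.9, 37.3 and 42.3 CPM in old libraries, without overlap, at an edgeR adjusted p = 0.627 with all libraries. The acylcarnitine carrier Slc25a20 had 0.04 with and -0.02 without young replicate 1, the basic amino acid carrier Slc25a29 had -0.03 in both fits, and Slc25a47 had -0.26 and -0.45 at levels of 1.08 to 2.66 CPM.

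The mitoferrins Slc25a37 and Slc25a28, which bring in iron, had log2 differences of -0.11 and -0.09 with all libraries and of -0.16 and 0.18 without young replicate 1. The pyrimidine nucleotide carriers Slc25a33 and Slc25a36 had 0.08 and -0.16, and -0.17 and 0.03 without young replicate 1. Relatives of the uncoupling proteins, Slc25a14, Slc25a27 and Slc25a30, had -0.24, -0.91 and 0.24, and -0.42, 0.36 and 0.55 without young replicate 1. None of these 7 members was called by edgeR or DESeq2 in either fit, and 0 had an unadjusted p under 0.05 in edgeR.

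Slc25a53 (gene 67062, chromosome X, 136981116 to 137038302), a carrier without an assigned substrate, was the other member called higher. It stood at 3.70, 2.58 and 1.44 CPM in young replicates 1 to 3 and at 5.56, 5.02 and 4.75 CPM in old replicates 1 to 3. The groups did not overlap, but the values rest on 25 to 102 counts per library. Its mean was 0.85 FPKM in young and 1.8 FPKM in old libraries, so it passed the filter of 1 FPKM only through the old group. That filter favours its place in the counts of members higher in old libraries. Its log2 difference was 0.99 ± 0.37 with all libraries (edgeR adjusted p = 0.386) and 1.34 ± 0.34 without young replicate 1 (SE, edgeR adjusted p = 0.0483), a call that ended on also leaving out young replicate 3 or any old library. Its span overlaps Zcchc18, and the strand setting of the counts is not given in the sources used here. Slc25a46, an outer-membrane member that takes part in mitochondrial fusion and fission, stood at 50.3 to 55.8 CPM in all libraries, with log2 differences of -0.07 and -0.08 with and without young replicate 1. Slc25a35, at 1.73 to 6.54 CPM, had log2 differences of -0.41 and 0.30 with and without young replicate 1.

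Young replicate 1 differed from the other young libraries in both directions within the family. It lay below both for 18 of the 38 members (47.4%, against 41.2% of all genes) and above both for 15 (39.5%, against 45.7%). All 3 carriers of ADP, ATP and phosphate and 5 of 6 carboxylic acid carriers lay below, and all 3 ATP-Mg/phosphate carriers lay above. On the log2 CPM scale the gap to the mean of the other young libraries reached -1.15 for Slc25a15, -1.09 for Slc25a5 and -0.96 for Slc25a26. It reached 2.33 for Slc25a27, 2.24 for Slc25a45 and 1.55 for Slc25a23. Slc25a27 stood at 51.5 CPM there against 9.57 and 10.1 in the other young and 9.34 to 15.1 in old libraries, and Slc25a45 at 58.5 CPM against 13.8 and 10.4 in the other young and 10.8 to 23.6 in old libraries. Their log2 differences of -0.91 and -0.70 became 0.36 and 0.49 without that library, with no call in either fit. The members in this paragraph were picked after their values were seen.

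**Figure D4:**
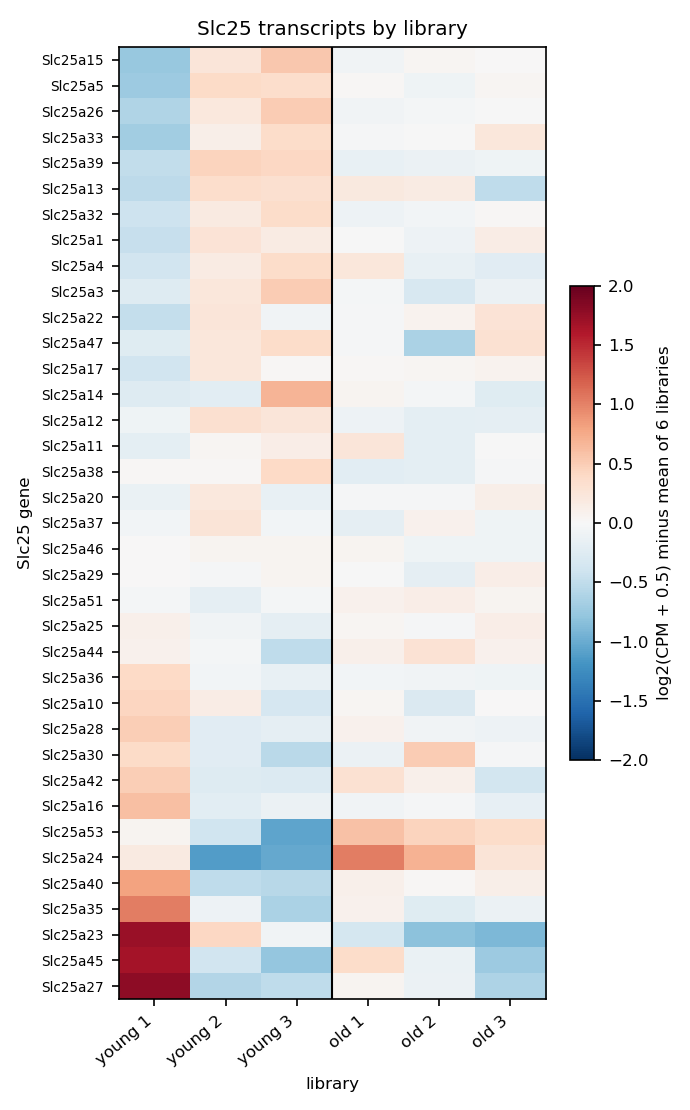
Level of 37 of the 38 tested Slc25 genes in each library, as log2(CPM + 0.5) minus the gene's mean over the 6 libraries, ordered from the genes lowest in young replicate 1 against the other young libraries to the highest. Blue is below and red above the gene's mean. Young replicate 1 ranges from Slc25a15 and Slc25a5 at the low end to Slc25a45 and Slc25a27 at the high end, and the old libraries set Slc25a24 and Slc25a53 apart from young replicates 2 and 3.

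Other genes of mitochondrial transport gave a background to the family. Of 13 genes of the import route for carriers, 0 were called with all libraries in edgeR (0 at an unadjusted p under 0.05) and 1 was lower without young replicate 1: Timm13, a small chaperone of the intermembrane space, at -0.74 ± 0.19 against -0.37 ± 0.42 with all libraries (log2, SE, edgeR adjusted p = 0.0499 and 0.859). Over all genes, edgeR called 0.875% with all libraries and 8.84% without young replicate 1, with 2.98% lower. The Timm13 call sat at the threshold, and Timm13 stood at 73.0 and 114 CPM in young replicates 2 and 3. Leaving out a further library gave log2 differences of -1.02 to -0.39, and the call did not hold in every such fit. In young replicate 1 all 13 import genes lay below both other young libraries, against 41.2% of all genes. Log2 differences were below 0 for 10 of 13 with all libraries (median -0.10, against 55.1% and a median of -0.03 for all genes). Without young replicate 1 they were below 0 for 13 of 13 (median -0.32, against 49.0% and 0.01). Leaving out the lowest young library raises the young mean. The second count thus follows in part from the position of young replicate 1 and is no separate result. Among 16 tested genes of other inner-membrane transport, 0 were called by edgeR in either fit, with 2 and 7 at an unadjusted p under 0.05 (against 10.6% and 28.1% of all genes). With and without young replicate 1, the pyruvate carrier subunits had log2 differences of 0.20 and 0.13 for Mpc1 and of -0.38 and -0.65 for Mpc2, and the calcium uniporter Mcu had 0.27 and 0.09. Among 3 tested relatives of the family under other symbols, 0 were called. Ucp2, the uncoupling protein of lymphocytes, stood at 460 to 620 CPM in young and 537 to 612 CPM in old libraries, with log2 differences of 0.12 with all libraries (edgeR adjusted p = 0.903) and 0.09 without young replicate 1.

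Of 6 outer-membrane channels and partners, 0 were called by edgeR in either fit, with 0 and 3 at an unadjusted p under 0.05 (against 10.6% and 28.1% of all genes). Of 12 tested genes of mitochondrial mass and matrix enzymes, 0 were called with all libraries and 1 was lower without young replicate 1: Hspd1, the matrix chaperonin, at -0.60 ± 0.15 against -0.18 ± 0.47 with all libraries (log2, SE, edgeR adjusted p = 0.0441 and 0.956). Over all genes, edgeR called 0.875% with all libraries and 8.84% without young replicate 1, with 2.98% lower. Hspd1 stood at 230 CPM in young replicate 1, at 803 and 1015 in the other young libraries and at 554 to 647 in old libraries. Leaving out a further library beside young replicate 1 gave log2 differences of -0.76 to -0.43, and the Hspd1 call did not hold in every such fit. Citrate synthase, Cs, often read as a measure of mitochondrial content, stood at 218 to 295 CPM in young and 266 to 285 CPM in old libraries, with log2 differences of 0.09 with all libraries and -0.02 without young replicate 1.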

How the data were processed

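RNA from 6 libraries was sequenced on an Illumina instrument, per the labels' protocols. Expected counts and FPKM values for 66712 RefSeq transcripts were deposited by the authors, per the file headers. The submitters' processing notes list Bowtie, RSEM and GRCm38. Neither versions, annotation release nor strand setting is given in the sources used here. Expected counts share ambiguous reads between transcripts, which leaves low-level splits uncertain: 27 of the 38 tested members had at least 2 transcripts with 10% or more of their FPKM in some library.

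Both units were summed per Entrez gene, and symbols were taken from the RefSeq table of GRCm38.p6 (19830 of 19977 genes matched). Rounded counts entered edgeR 4.0.16 in R 4.3.3 (quasi-likelihood F test, TMM factors, no replicate block, mean FPKM of 1 or more). Benjamini-Hochberg adjustment ran over all 10509 genes, with and without young replicate 1. Standard errors were derived as the log2 difference over the root of F. DESeq2 1.42.0, limma 3.58.1 on log2(FPKM + 1) and log2(FPKM + 0.1), other scalings and filters, and leaving out each library were alternatives. Scripts were tested on simulated counts. No libraries agreed within sampling noise (smallest chi-square per degree of freedom 26.34). Members and lists were chosen with earlier results of these data known. Values per library are given for members called in either fit, at an unadjusted p under 0.05, without overlap and 1.5-fold apart, or among the 5 highest by FPKM, and for further members picked after their values were seen. One tested member is counted in all totals but is not reported here by itself. Figures used matplotlib 3.10.9.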

Additional observations from a re-analysis of the deposited data

How the results depend on the processing

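With all libraries, 0 members were called higher and 0 lower under every other filter, scaling or tool tried, except that DESeq2 called 1 lower. Leaving out each library in turn gave 0 to 2 called higher and 0 to 3 called lower, all of them without young replicate 1. The median log2 difference of the members moved from -0.10 to -0.04 with no filter on low values (which adds low members) and in limma with either pseudocount, to -0.06 with the replicate block, and to between -0.13 and -0.01 on leaving out a library. Without young replicate 1, 1 member was called higher, not 2, with no filter, the replicate block, upper-quartile factors or quantile-normalized values, and 0 with a mean FPKM of at least 5, a limit that drops both. DESeq2 then called 5 lower, not 3, and the replicate block 4. No filter and a mean FPKM of at least 5 gave 2 lower each, and limma 1 with either pseudocount. Leaving out a further library gave 0 to 2 called higher and 0 to 1 lower. Over all genes, 92 calls became 501 in DESeq2, 203 with no filter, 55 with a mean FPKM of at least 5 and 0 to 9 on leaving out a library other than young replicate 1, and 929 calls without that library became 1792 in DESeq2 and 42 to 952 on leaving out a further one. Same-numbered libraries correlated at 0.223, -0.0287 and 0.182 in their deviations from the group means. Differently numbered libraries were not compared in this way, so whether the replicate numbers pair the libraries cannot be told. Over all genes, the replicate block gave 119 calls in place of 92 and, without young replicate 1, 1340 in place of 929. The block called Slc25a3 without young replicate 1 (edgeR adjusted p = 0.0277) but not Slc25a53 (0.055), and changed no other member's call. No sign changed for the 5 members that edgeR called. Among members without a call in edgeR, Slc25a1 turned to 0.01 with no filter, 0.02 with the block and 0.03 in each limma fit, and Slc25a5 to 0.01 in limma with either pseudocount and 0.02 after quantile normalization. With no filter Slc25a29 turned to 0.01. Slc25a42 turned to -0.01 with a mean FPKM of at least 5, upper-quartile factors or quantile-normalized values. Without young replicate 1, Slc25a10 turned to 0.02 and 0.04 in limma with pseudocounts of 1 and 0.1, Slc25a16 to -0.11 after quantile normalization, Slc25a20 to 0.01 with the block and 0.02 in limma with either pseudocount, and Slc25a22 to -0.01 with upper-quartile factors. On leaving out one library, log2 differences that crossed 0 spanned Slc25a1 -0.21 to 0.13, Slc25a4 -0.31 to 0.03, Slc25a5 -0.37 to 0.09, Slc25a11 -0.10 to 0.12, Slc25a13 -0.37 to 0.08, Slc25a14 -0.42 to 0.17, Slc25a15 -0.41 to 0.17 and Slc25a16 -0.40 to 0.08. The same held for Slc25a17 -0.08 to 0.22, Slc25a20 -0.04 to 0.16, Slc25a26 -0.43 to 0.10, Slc25a27 -1.29 to 0.36, Slc25a28 -0.23 to 0.18, Slc25a29 -0.12 to 0.06, Slc25a32 -0.33 to 0.03 and Slc25a33 -0.17 to 0.30. It also held for Slc25a35 -0.76 to 0.30, Slc25a36 -0.27 to 0.03, Slc25a40 -0.22 to 0.65, Slc25a42 -0.14 to 0.32, Slc25a45 -1.10 to 0.49 and Slc25a47 -0.56 to 0.01. With young replicate 1 and one further library left out they spanned Slc25a10 -0.25 to 0.29, Slc25a11 -0.19 to 0.02 and Slc25a14 -0.83 to 0.15. Others spanned Slc25a17 -0.19 to 0.03, Slc25a20 -0.20 to 0.18 and Slc25a22 -0.14 to 0.18. The rest spanned Slc25a29 -0.13 to 0.05, Slc25a36 -0.02 to 0.08 and Slc25a37 -0.32 to 0.00. The cause of these moves was not tested. Of the 5 members called by edgeR, Slc25a53 had the lowest counts, at 25 to 102 per library, and a group of 2 libraries rests each call on both.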
